A study of Mus musculus with 8 samples.

Results

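The genes described here are 10 genes of the integrated stress response, taken by name from a list fixed for this description: the transcription factors Atf4, Atf5 and Ddit3, the response genes Trib3, Chac1 and Gdf15, and the enzymes Asns, Psat1, Phgdh and Mthfd2. All 10 of these names were found among the 24972 genes of the deposited table. All 10 also had a mean of at least 10 normalized counts over the libraries, and so were among the 13267 genes tested. The choice of members used no measured value, but it was made with earlier results of these data known.

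RNA was measured in primary mouse embryonic fibroblasts, cultures grown from dissociated embryos and so not a single pure cell type. The 8 libraries came from 4 genotypes, 2 from each, and no group was treated. WT cells carried both genes intact. Tfam+/- cells had lost 1 allele of Tfam, which encodes a protein that packages mitochondrial DNA and helps to start its transcription. Zbp1-/- cells lacked Zbp1, a sensor of nucleic acids, and Tfam+/-Zbp1-/- cells carried both changes. All cells came from embryos of embryonic day 14, were grown in 10% serum and were harvested after 2 passages. The sources used here do not say whether the libraries of 1 genotype hold separate embryos, so the p-values measure only the spread between these libraries, which may be technical. The design asks whether losing 1 Tfam allele, with or without Zbp1, moves this programme.

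In the integrated stress response, kinases that sense different stresses phosphorylate the translation factor eIF2 alpha. General translation then falls while the mRNA of Atf4 is translated more, and ATF4 protein switches on genes for amino acid supply, serine synthesis and mitochondrial folate metabolism. Disturbed mitochondria are known to start this response through the protease OMA1, the relay protein DELE1 and the kinase HRI, and Gdf15, Trib3, Chac1, Asns, Psat1, Phgdh and Mthfd2 are widely used as its readouts. Because much of the control of Atf4 lies in translation, the level of its mRNA is only 1 side of its activity.

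The DNA letters below show where the core of the composite site for ATF4 and its C/EBP partners occurs in promoters of the group. The motif searched was TGATGNAA, 8 letters on both strands, in RefSeq promoter windows of GRCm38.p6 (mm10) that run from 250 bases before to 50 bases after each gene's start. It occurred in 3.97% of all 32851 windows. All 10 members had a window, with 13 windows among them, and 3 of these genes, Chac1, Asns and Trib3, held a match. The members are counted here as genes, while 3.97% is a share of windows. Slc7a11, the cystine transporter gene and another gene linked to ATF4, is shown beside them because its window held 2 matches. Each stretch is written 5′ to 3′ along the gene's strand with the match in capitals, and a match is a description of letters and not a measured site. The Chac1 stretch is chr2:119350999-119351106 on the plus strand, with the match at bases -193 to -186 from the start.
Chac1: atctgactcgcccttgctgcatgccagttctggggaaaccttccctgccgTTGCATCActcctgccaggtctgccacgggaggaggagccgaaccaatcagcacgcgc
The Asns stretch is chr6:7693210-7693282 on the minus strand, with the match at bases -23 to -16.
Asns: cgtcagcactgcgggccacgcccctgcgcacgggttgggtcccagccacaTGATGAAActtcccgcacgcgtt
The Trib3 stretch is chr2:152344028-152344057 on the minus strand, with the match at bases 15 to 22 after the start.
Trib3: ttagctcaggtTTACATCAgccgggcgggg
The Slc7a11 stretch is chr3:50443614-50443729 on the minus strand, with matches at bases -66 to -59 and -47 to -40.
Slc7a11: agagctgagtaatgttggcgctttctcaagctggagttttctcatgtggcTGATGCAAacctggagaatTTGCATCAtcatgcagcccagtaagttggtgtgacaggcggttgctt
Chac1, Asns and Trib3 did not share 1 pattern over the libraries: Chac1 and Trib3 were highest in the Zbp1-/- libraries, while Asns was lowest in Tfam+/-Zbp1-/-.

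Several facts about the libraries bear on every result. Totals were 16752835 to 18303036 normalized counts. Tfam was at 278 to 424 normalized counts in the 4 libraries with 1 Tfam allele and at 471 to 675 in the other 4. Zbp1 was at 0.862 to 3.79 in the 4 libraries without the gene, but also at only 3.19 and 7.34 in WT, against 64.6 and 69.8 in Tfam+/-, so it gives little check of the Zbp1-/- label. The 10 fibroblast markers were all expressed, with a summed level of 361250 to 584640. The 8 leukocyte markers summed to 4197 and 4245 in WT, against 4816 and 5281 in Tfam+/-, while Zbp1-/- had 2373 and 2641, against 2131 and 2167 in Tfam+/-Zbp1-/-. The 2 WT libraries and the 2 Tfam+/-Zbp1-/- libraries differed by little more than counting noise, with 7.75% and 8.23% of genes past a limit that counting alone passes in 5%. For the Tfam+/- and Zbp1-/- pairs the figures were 71.7% and 69.7%. The first pairs may therefore not hold independent cultures, and each result was also computed with each of these pairs as 1 sample. Then limma called no gene in any of the 5 comparisons. The spread in that fit came only from the Tfam+/- and Zbp1-/- pairs, which differed widely. A lack of calls there therefore cannot decide whether a change holds, here or wherever that fit is used below.

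Tfam+/- replicate 1 and Zbp1-/- replicate 2 stood apart from the other 6 libraries. How much of the spread of the members lay there differed by gene. The highest level of Atf4 was 1.37 times the lowest over all 8 libraries and 1.07 times over the other 6. For Asns and Psat1 this ratio was the same either way, at 1.14 and 1.22. Across all genes, the log2 difference of Tfam+/- replicate 1 from its partner and that of Zbp1-/- replicate 2 from its partner had r = 0.70, and 86.7% of genes had both differences of 1 sign. This r is a description over genes, not over independent replicates. The main results are also given without these libraries. This leaves 1 library in each of Tfam+/- and Zbp1-/-, so only changes are given here, and counts of calls are in the closing section.

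Loss of 1 Tfam allele did not move the group in a way that passed the test. In Tfam+/- against WT, limma called 0 of the 10 members at an adjusted p under 0.05, and 0 had an unadjusted p under 0.05. Over all genes tested 0.731% were called and 8.74% had an unadjusted limma p under 0.05. Changes were split evenly, with 5 members higher and 5 lower and a median log2 change of -0.00, against -0.01 for all genes. This split rested on the 2 libraries that stood apart: without them 2 members were higher and 8 lower, with a median of -0.06, and after the correction for GC content described below 3 were higher and 7 lower. The highest as deposited was Phgdh at 0.31 ± 0.21 (SE, limma, adjusted p 0.56) and the lowest Mthfd2 at -0.06 ± 0.10 (adjusted p 0.76). The 95% interval for Phgdh ran from -0.18 to 0.80 and that for Mthfd2 from -0.29 to 0.18, so the precision differed widely between members.

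**Figure D1:**
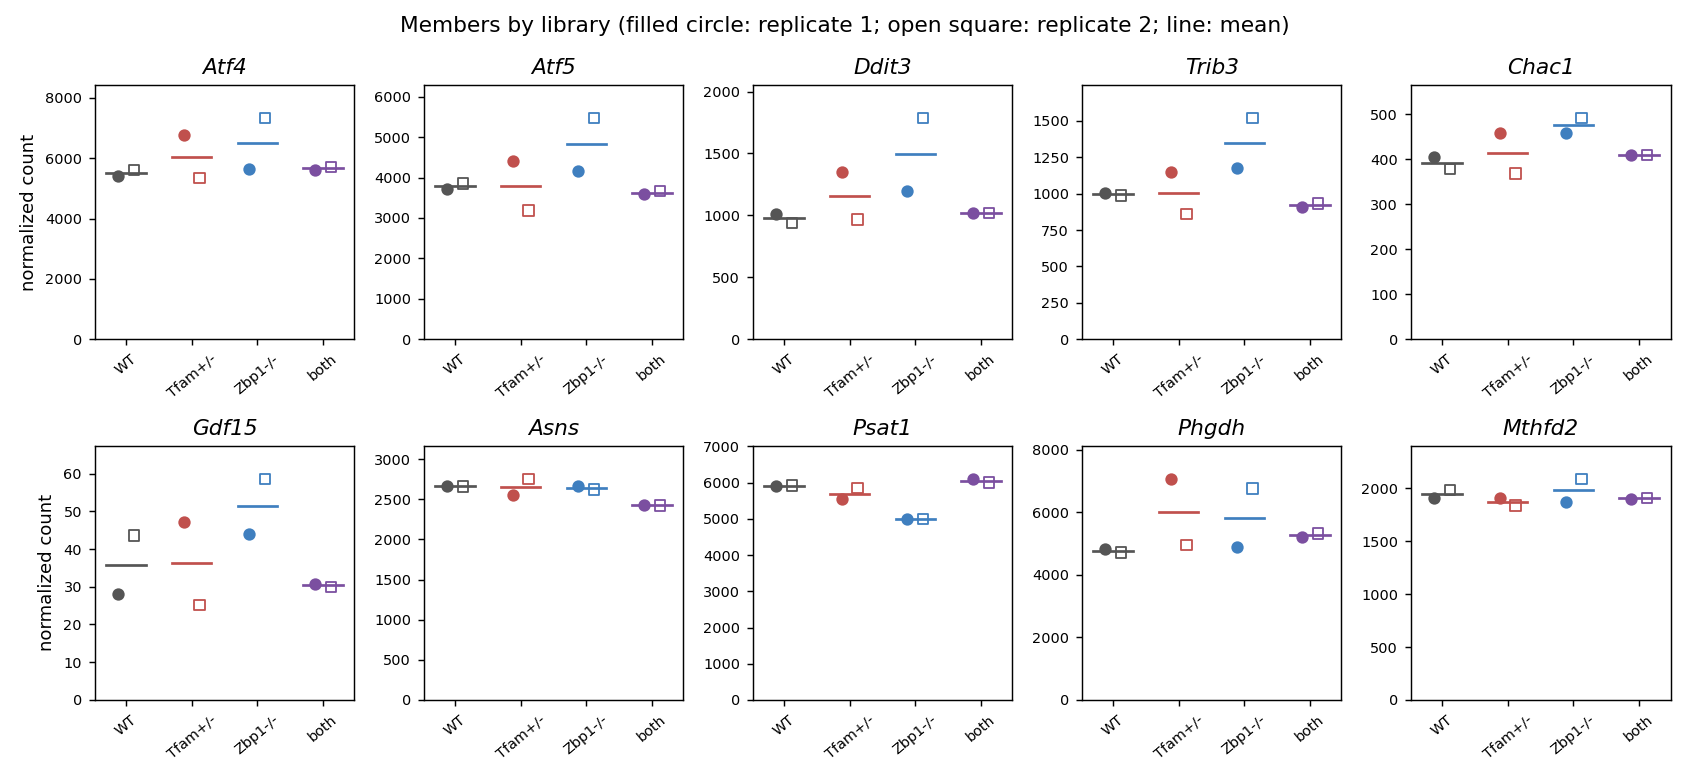
Normalized counts of each member (vertical axis, from 0, 1 panel per gene) in the 8 libraries of the 4 genotypes, where "both" is Tfam+/-Zbp1-/-; filled circles are replicate 1, open squares replicate 2 and lines the mean. Atf4, Ddit3 and Phgdh are highest in 1 Tfam+/- and 1 Zbp1-/- library (Phgdh at 7069 and 6759), while Psat1 is lowest in both Zbp1-/- libraries (4987 and 4999).

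Atf4 (chromosome 15, 80255184 to 80257545), the transcription factor at the centre of the response, had 5416 and 5610 normalized counts in WT, against 6758 and 5350 in Tfam+/-. Zbp1-/- had 5661 and 7333, against 5627 and 5707 in Tfam+/-Zbp1-/-. The 2 libraries that stood apart were the highest of all, and every genotype overlapped the rest. Tfam+/- differed from WT by 0.13 ± 0.16 on the log2 scale (limma, adjusted p 0.68), and by -0.043 without Tfam+/- replicate 1. Tfam+/-Zbp1-/- differed from Zbp1-/- by -0.19 ± 0.16 (adjusted p 0.61), and by 0.0015 without Zbp1-/- replicate 2. Over the other 6 libraries the highest level of Atf4 was 1.07 times the lowest, the narrowest range among the members.

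Atf5 (chromosome 7, 44812256 to 44816658), a related factor linked to the mitochondrial unfolded protein response, had 3720 and 3852 normalized counts in WT, against 4404 and 3188 in Tfam+/-. Zbp1-/- had 4167 and 5471, against 3592 and 3666 in Tfam+/-Zbp1-/-. The lowest value and the next to highest came from the same genotype, Tfam+/-. Ddit3 (chromosome 10, 127290793 to 127296291), which encodes the death-promoting factor CHOP, had 1015 and 939 in WT, against 1353 and 966 in Tfam+/-, 1200 and 1785 in Zbp1-/-, and 1019 in each Tfam+/-Zbp1-/- library. Zbp1-/- replicate 2 was the highest library for both genes. For Ddit3 the log2 change in Zbp1-/- from WT was 0.58 ± 0.23 (limma, adjusted p 0.23), and that in Tfam+/-Zbp1-/- from Zbp1-/- was -0.52 ± 0.23 (adjusted p 0.42). Both Zbp1-/- libraries lay above both WT libraries, as they did for 42.1% of all genes. The changes were 0.30 and -0.24 without the 2 libraries. Neither passed the test as deposited.

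Trib3 (chromosome 2, 152337425 to 152344060) encodes a pseudokinase that is induced by ATF4 and damps it. It had 1003 and 986 normalized counts in WT, against 1151 and 861 in Tfam+/-. Zbp1-/- had 1176 and 1519, against 905 and 933 in Tfam+/-Zbp1-/-. Both Zbp1-/- libraries were above the other 6, a pattern that 10.9% of all genes shared for this genotype. Zbp1-/- differed from WT by 0.43 ± 0.18 on the log2 scale (limma, adjusted p 0.25) and Tfam+/-Zbp1-/- from Zbp1-/- by -0.54 ± 0.18 (adjusted p 0.29). These comparisons share the Zbp1-/- libraries. Without the 2 libraries that stood apart they were 0.24 and -0.36.

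Chac1 (chromosome 2, 119351242 to 119354326), an enzyme that breaks down glutathione, had 405 and 378 normalized counts in WT, against 458 and 368 in Tfam+/-. It had 459 and 491 in Zbp1-/- and 409 in each Tfam+/-Zbp1-/- library. The Zbp1-/- libraries were again above the other 6, the pattern that 10.9% of all genes shared for this genotype. The lower Zbp1-/- library exceeded Tfam+/- replicate 1 by only about 1 normalized count. Gdf15 (chromosome 8, 70629393 to 70632470), a secreted stress hormone and a common marker of mitochondrial disease, was the lowest of the members in normalized counts, which are not adjusted for transcript length. It had 28.0 and 43.6 in WT, against 47.2 and 25.2 in Tfam+/-, while Zbp1-/- had 44.1 and 58.6, against 30.8 and 29.95 in Tfam+/-Zbp1-/-. WT and Tfam+/- spanned nearly the same range. Its change in Tfam+/-Zbp1-/- against Zbp1-/- was -0.72 ± 0.36 (limma, adjusted p 0.48), with a 95% interval from -1.57 to 0.13, and -0.52 without the 2 libraries that stood apart.

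Asns (chromosome 6, 7675165 to 7693209), asparagine synthetase, was at 2560 to 2755 normalized counts in 6 libraries and lower in the remaining 2. It had 2665 and 2660 normalized counts in WT, against 2560 and 2755 in Tfam+/- and 2662 and 2622 in Zbp1-/-. Both Tfam+/-Zbp1-/- libraries had 2425 and lay below all others, a pattern that 4.24% of all genes shared for this genotype. The log2 change was -0.13 ± 0.09 against Tfam+/- (limma, adjusted p 0.42) and -0.12 ± 0.09 against Zbp1-/- (adjusted p 0.58). Neither passed the test as deposited. Without the 2 libraries that stood apart these values were -0.18 and -0.13. The leukocyte markers were lowest in the same 2 libraries. Their sum was also lower in Zbp1-/- (2641 and 2373) than in WT (4245 and 4197), while Asns was at 2662 and 2622 in Zbp1-/-. The part of these markers in the level of Asns was not tested. In these bulk cultures, fewer cells of a type and less RNA per cell cannot be told apart.

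Psat1 (chromosome 19, 15905123 to 15925059), the aminotransferase of serine synthesis, had 5912 and 5913 normalized counts in WT, against 5539 and 5851 in Tfam+/-. Zbp1-/- had 4987 and 4999, against 6103 and 6008 in Tfam+/-Zbp1-/-. The Zbp1-/- libraries lay below the other 6 and the Tfam+/-Zbp1-/- libraries above them, patterns that 2.98% and 14.9% of all genes shared for those genotypes. Replicates agreed closely, and the 2 libraries that stood apart for other members did not stand apart here. For Psat1 the log2 change in Zbp1-/- from WT was -0.24 ± 0.08 (limma, adjusted p 0.20) and that in Tfam+/-Zbp1-/- from Zbp1-/- was 0.28 ± 0.08 (adjusted p 0.25). Neither change passed the test over all genes as deposited. Without the 2 libraries the changes were -0.25 and 0.28.

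Phgdh (chromosome 3, 98313171 to 98339969), which catalyses the first step of serine synthesis, behaved unlike Psat1, the next enzyme of the same route. It had 4815 and 4714 normalized counts in WT, against 7069 and 4956 in Tfam+/-. Zbp1-/- had 4901 and 6759, against 5214 and 5327 in Tfam+/-Zbp1-/-. The WT libraries were the lowest of all, a pattern that 11.6% of all genes shared for WT, and the 2 libraries that stood apart were the highest. The change in Tfam+/- against WT was 0.31 as deposited and 0.06 without those libraries. Mthfd2 (chromosome 6, 83305704 to 83326011), a mitochondrial enzyme of the folate cycle, had 1909 and 1986 in WT, against 1908 and 1836 in Tfam+/-, while Zbp1-/- had 1871 and 2089, against 1903 and 1909 in Tfam+/-Zbp1-/-. All genotypes overlapped, and the highest library of Mthfd2 was 1.14 times the lowest.

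The other comparisons gave no call among the members either. In Tfam+/-Zbp1-/- against Zbp1-/-, limma called 0 of 10 members, against 0.415% of all genes. An unadjusted limma p under 0.05 was found for 2 (Trib3 and Psat1), against 12.3% of all genes. There 9 members were lower and 1, Psat1, was higher, with a median log2 change of -0.20 against 0.02 for all genes. Leaving out the 2 libraries that stood apart gave 4 higher and 6 lower, with a median of -0.15. In Zbp1-/- against WT, 0 were called, against 1.06% of all genes. An unadjusted limma p under 0.05 was found for 3 (Ddit3, Trib3 and Psat1), against 19.7% of all genes. Here 8 were higher and 2 lower, with a median of 0.28 against 0.11. Leaving out the same libraries gave 7 higher and 3 lower with a median of 0.09, below the 0.11 of all genes, and the GC correction gave 3 higher and 7 lower with a median of -0.06. The direction of the members in this comparison thus depended on these choices. Both comparisons use the same Zbp1-/- libraries, of which replicate 2 was the highest library for 7 of the 10 members. Tfam+/- replicate 2, the partner of the other library that stood apart, was the lowest for 6.

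Loss of Zbp1 on the Tfam+/- background gave small differences. In Tfam+/-Zbp1-/- against Tfam+/-, 0 members were called, against 5.64% of all genes. For an unadjusted limma p under 0.05 the figures were 0 members and 20.8% of all genes. Their changes ran from -0.18 for Gdf15 to 0.09 for Psat1, with a median of -0.10, while the median of all genes was 0.14. As deposited 2 members were higher and 8 lower, but leaving out the 2 libraries that stood apart gave 9 higher and 1 lower, with a median of 0.09 against 0.13 for all genes. The GC correction gave 0 higher and 10 lower, with a median of -0.12 against -0.01. Rescaling the libraries by a trimmed mean of log ratios (TMM) moved that median of all genes to 0.02, and in Zbp1-/- against WT from 0.11 to 0.00. Psat1 was therefore below the median gene in this comparison, and under the rescaling its change was -0.04.

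The interaction asks whether the effect of losing a Tfam allele differs with and without Zbp1, as the Tfam+/-Zbp1-/- level less that of Zbp1-/-, from which the same difference between Tfam+/- and WT is subtracted on the log2 scale. limma called 0 of 10 members, against 0.663% of all genes. Of the members 1, Psat1, had an unadjusted limma p under 0.05, against 16.0% of all genes. The interaction of Psat1 was 0.33 ± 0.12 (adjusted p 0.29). For Ddit3 it was -0.75 ± 0.32 (adjusted p 0.31), for Trib3 -0.54 ± 0.25 (adjusted p 0.32) and for Asns -0.12 ± 0.13 (adjusted p 0.55). Without the 2 libraries it was 0.29 for Psat1 and -0.18 for Asns, but -0.22 for Ddit3 and -0.15 for Trib3. The values for Psat1 and Asns thus did not rest on those libraries, while most of those for Ddit3 and Trib3 did.

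**Figure D2:**
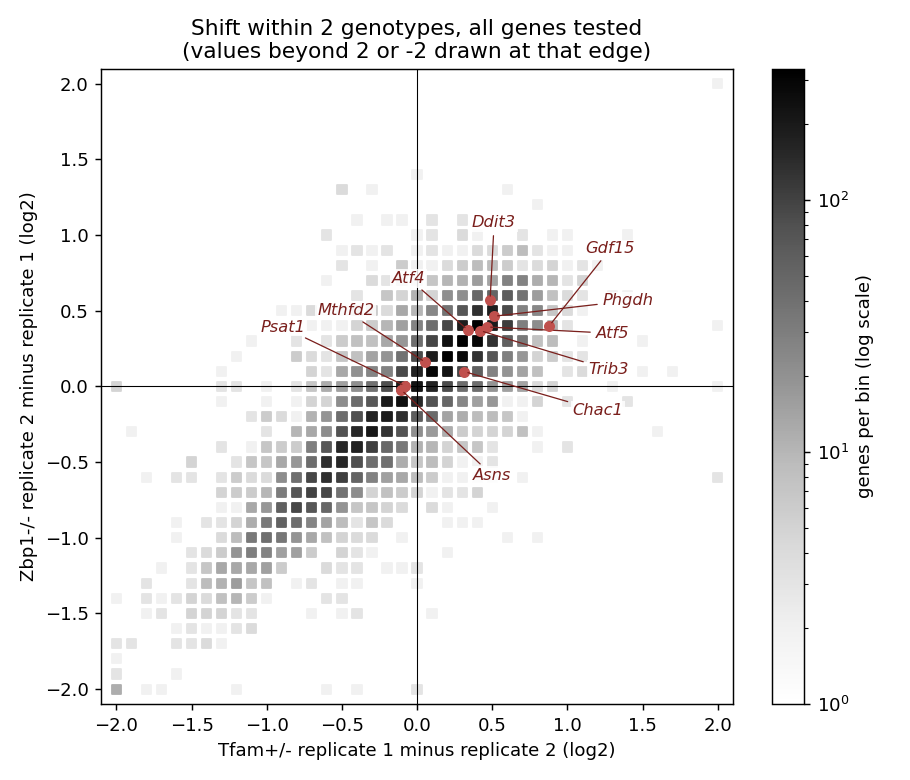
Log2 difference within the Tfam+/- pair (horizontal) and within the Zbp1-/- pair (vertical), with all 13267 tested genes as grey bins shaded by number and the members as red points. The members other than Asns and Psat1 lie where both libraries are higher than their partners, from Mthfd2 at 0.06 and 0.16 to Gdf15 at 0.88 and 0.40.

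The members' differences between the libraries of 1 genotype followed the base composition of their transcripts. GC content, from mouse protein-coding transcripts of GENCODE, was available for 96.0% of the genes tested. Across genes the mean of the 2 within-pair differences had r = 0.76 with GC content and r = -0.24 with log2 transcript length, as descriptions. In 5 groups of equal size from low to high GC, the median difference was -0.63, -0.26, 0.02, 0.25 and 0.37. Asns (49.8% GC), Psat1 (49.2%) and Mthfd2 (49.9%) fell in the middle group and had mean differences of -0.06, -0.04 and 0.11. Atf4 (55.4% GC), Ddit3 (55.4%) and Phgdh (56.2%) fell in the fourth group, with 0.36, 0.53 and 0.49. Atf5 (61.7%), Trib3 (58.2%), Chac1 (57.4%) and Gdf15 (61.7%) fell in the highest group, with 0.43, 0.39, 0.21 and 0.64. Atf4, Ddit3, Phgdh, Atf5, Trib3, Gdf15 and Mthfd2 were thus above the median of their group, Ddit3 the furthest. Chac1, Asns and Psat1 were below it. The cause of the difference between libraries was not tested.

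**Figure D3:**
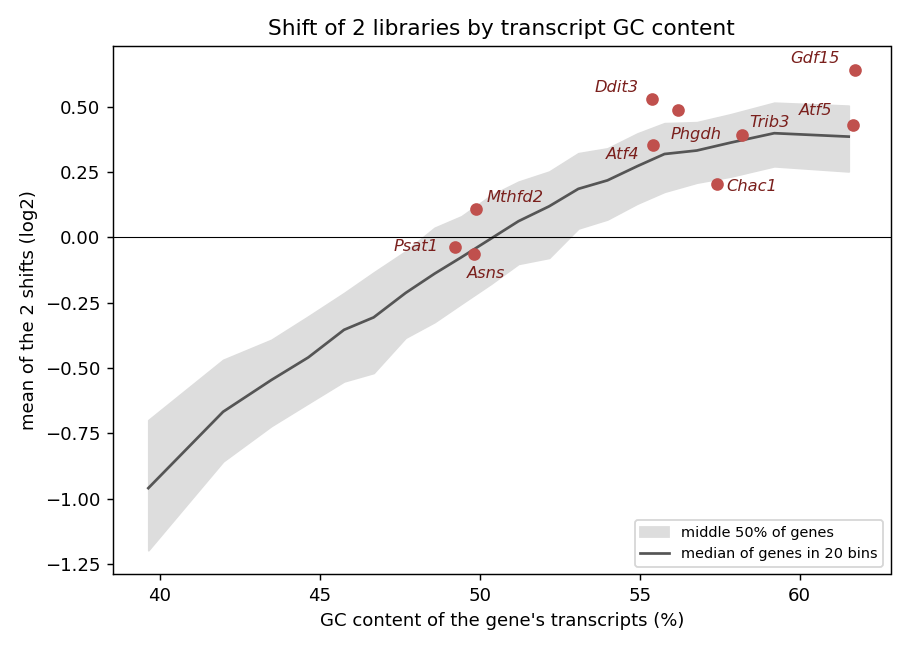
Mean of the 2 within-pair log2 differences (vertical) against transcript GC content in percent (horizontal), with the line joining medians of genes in 20 bins and the band holding the middle 50% of genes in each. Members with 55.4% GC or more lie at 0.21 to 0.64, and Asns, Psat1 and Mthfd2 near 0.

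The dependence on GC was next taken out of each library, a step added after the data were seen. The within-pair differences of Atf4, Atf5, Ddit3, Trib3, Phgdh and Gdf15 then shrank in both pairs. For Atf4 they went from 0.34 and 0.37 to 0.05 and 0.11, and for Trib3 from 0.42 and 0.37 to 0.04 and 0.04. Those of Ddit3 remained at 0.20 and 0.31, and those of Phgdh at 0.19 and 0.17. Those of Mthfd2 grew from 0.06 and 0.16 to 0.11 and 0.20. In the Zbp1-/- pair, Chac1 went from 0.10 to -0.22 and Psat1 from 0.0033 to 0.09. Across all genes with GC content, the 2 within-pair differences still had r = 0.37 after the correction. In Tfam+/- against WT, 0 members were then called, against 3.20% of all genes. An unadjusted limma p under 0.05 was found for 2, against 17.1% of all genes. For Tfam+/-Zbp1-/- against Zbp1-/-, 2 were called, against 6.10% of all genes: Trib3 fell (-0.36 ± 0.06, limma, adjusted p 0.014) and Psat1 rose (0.22 ± 0.05, adjusted p 0.048). In Zbp1-/- against WT, 1 was called, against 6.48%: Psat1 fell (-0.30 ± 0.05, adjusted p 0.017). For Tfam+/-Zbp1-/- against Tfam+/-, 1 was called, against 16.6%: Asns fell (-0.28 ± 0.05, limma, adjusted p 0.0088). The correction also recentred each library. It moved the median change of all genes from 0.14 to -0.01 in this comparison, and from 0.11 to 0.01 in Zbp1-/- against WT. How much of the changes of Asns and Psat1 came from this recentring was not tested. In the interaction 0 were called, against 5.58%, and 3 had an unadjusted limma p under 0.05, against 22.0% of all genes. With the WT and Tfam+/-Zbp1-/- pairs each as 1 sample besides, no member was called in any comparison. The spread there again came only from the Tfam+/- and Zbp1-/- pairs, so this lack of calls does not decide whether these changes hold.

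**Figure D4:**
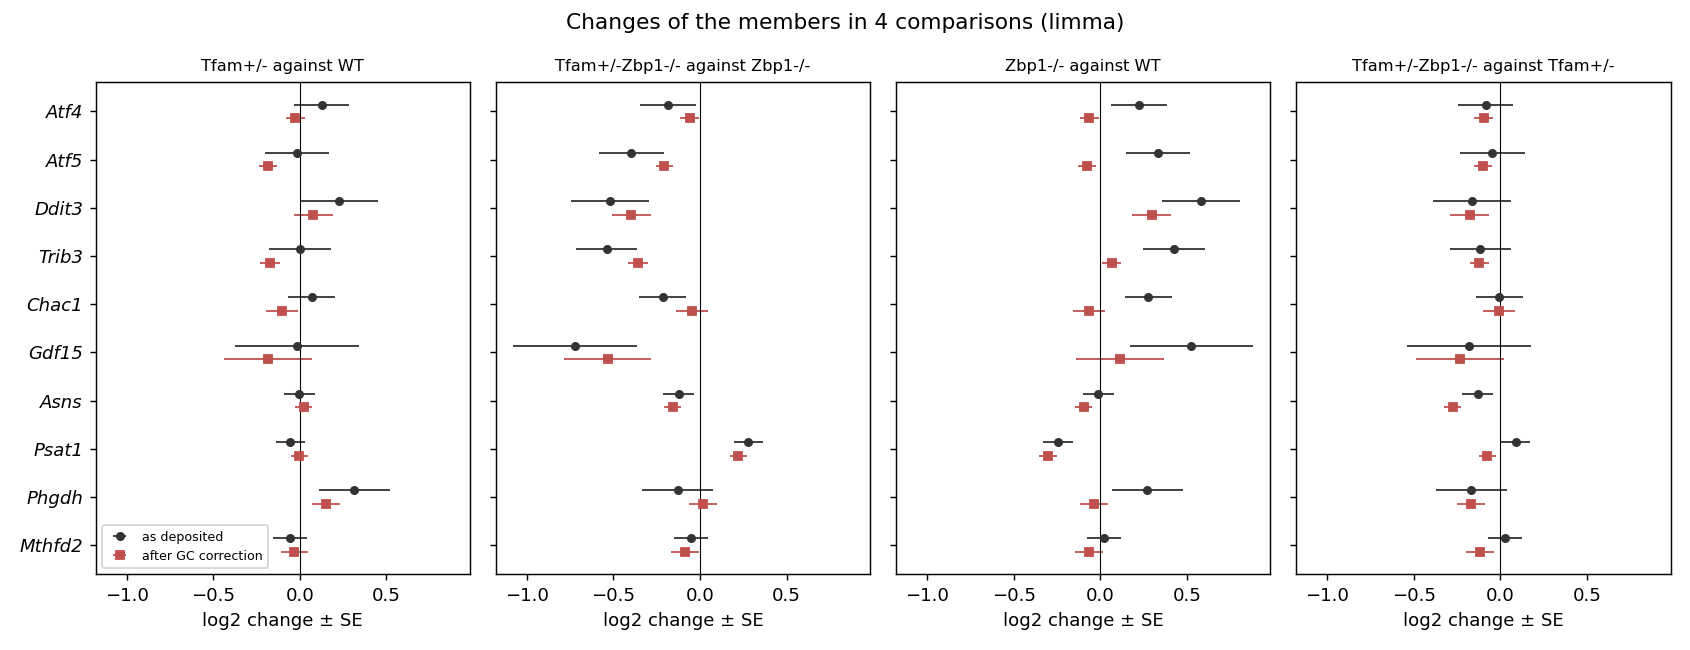
Log2 change with its SE (horizontal) of each member in 4 comparisons, from values as deposited (black circles) and after the GC correction (red squares). In Zbp1-/- against WT, Trib3 goes from 0.43 to 0.07, while Psat1 is below 0 either way (-0.24 and -0.30).

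A term shared by the 2 libraries gave a further view, also chosen after the data were seen. The term itself was called for 8 of the 10 members, all upward and without Asns and Psat1, against 65.3% of all genes. Beside it, 2 members (Atf5 and Trib3, both lower) were called in Tfam+/- against WT, against 15.6% of all genes. A total of 6 were called in Tfam+/-Zbp1-/- against Zbp1-/-, against 23.8% of all genes: Psat1 and Phgdh rose, and Atf5, Ddit3, Trib3 and Asns fell. In Zbp1-/- against WT 4 were called, against 35.6%: Atf5, Ddit3 and Trib3 rose and Psat1 fell. Between Tfam+/-Zbp1-/- and Tfam+/- 3 were called, against 45.6%: Atf4 and Atf5 rose and Asns fell. In the interaction 2 were called, against 16.9%: Psat1 upward and Asns downward. Of the 3 residual degrees of freedom behind these calls, 2 come from the WT and Tfam+/-Zbp1-/- pairs, which differed by little more than counting noise. The prior, estimated over all genes from the same libraries, added 15.1 degrees of freedom. The share of members called was close to or below that of all genes in all comparisons but Tfam+/-Zbp1-/- against Zbp1-/-.

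Around the members, 6 lists of other pathway genes were examined in Tfam+/- against WT. limma called 0 genes of any list, and 6 of the 94 list genes (6.38%) had an unadjusted p under 0.05, against 8.74% of all genes. Of 11 sensors and feedback genes of the response, 3 were higher and 8 lower, with a median log2 change of -0.03. They ran from Eif2ak2, the kinase PKR, at 0.83 to Ppp1cb, a catalytic subunit of protein phosphatase 1, at -0.92. Of 19 other factors and targets linked to ATF4, 10 were higher and 9 lower with a median of 0.02, from Cbs, an enzyme of cysteine synthesis, at 0.86 to Slc7a11 at -0.88. Of 10 amino acid transporters, 3 were higher and 7 lower with a median of -0.06, from Slc1a5, a glutamine transporter, at 0.21 to Slc38a2 at -0.52. Leaving out 1 library at a time gave 0.24 (without WT replicate 1) to 1.48 (without WT replicate 2) for Cbs and -0.42 (without Tfam+/- replicate 1) to -1.33 (without Tfam+/- replicate 2) for Slc7a11. Without the library of Tfam+/- that stood apart, Ppp1cb was at -0.24, Slc1a5 at 0.06 and Slc38a2 at -0.22. Medians of these lists lay close to the -0.01 of all genes.

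Of 17 cytosolic tRNA synthetases and tRNA export genes, 12 were higher and 5 lower in the same comparison, and the median was 0.17. The median was 0.03 without the 2 libraries that stood apart, with the same counts, while the GC correction gave 17 higher and 0 lower with a median of 0.10. As deposited they ran from Kars, the lysine enzyme, at 0.30 to Xpot, a tRNA export factor, at -0.22, and Xpot turned to 0.02 after the GC correction. Of 21 other enzymes and carriers of serine, glycine, folate and proline metabolism, 9 were higher and 12 lower with a median of -0.06, and Aldh1l2 was the lowest at -0.82. Of 16 endoplasmic reticulum chaperones and XBP1 and ATF6 targets, 8 were higher and 8 lower with a median of 0.00, from Sdf2l1 at 0.34 to Dnajb9 at -0.96. Without the Tfam+/- library that stood apart, Kars was at 0.19, Xpot at -0.06, Sdf2l1 at 0.13 and Dnajb9 at -0.33. Several of the lowest values came mostly from the library that stood apart: Ppp1cb had 2010 and 5191 normalized counts in Tfam+/-, against 6077 and 6189 in WT. In Zbp1-/- it had 5860 and 2223, again with the low value in the library that stood apart.

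Between Tfam+/-Zbp1-/- and Zbp1-/-, limma again called 0 genes of the 6 lists, and 6 (6.38%) had an unadjusted p under 0.05, against 12.3% of all genes. The sensors had 7 higher and 4 lower, from Ppp1cb at 0.69 to Ppp1r15a, the stress-induced eIF2 alpha phosphatase subunit, at -0.45. The genes linked to ATF4 had 6 higher and 13 lower with a median of -0.17, from Slc7a11 at 0.62 to Atf3, a stress-induced factor, at -0.71 ± 0.17 (adjusted p 0.16). Atf3 had 132 and 161 normalized counts in Zbp1-/- and 92.2 and 85.0 in Tfam+/-Zbp1-/-, and 23.3% of all genes likewise had both Tfam+/-Zbp1-/- libraries below both Zbp1-/- libraries. Transporters had 3 higher and 7 lower (Slc38a2 at 0.56, Slc43a1 at -0.34), and synthetases and tRNA export genes 8 higher and 9 lower (Xpot at 0.13, Aars at -0.27). Serine, folate and proline genes had 10 higher and 11 lower, from Slc25a32, the mitochondrial folate carrier, at 0.67 to Gldc at -0.53. The chaperones and related genes had 13 higher and 3 lower, from Dnajb9 at 0.48 to Herpud1 at -0.14. Of these named genes, Ppp1cb, Xpot, Dnajb9 and Herpud1 changed sign without Zbp1-/- replicate 2, to -0.01, -0.01, -0.11 and 0.0041. Others kept their sign but shrank without that library: Slc7a11 to 0.08, Slc25a32 to 0.22, Slc38a2 to 0.21, Ppp1r15a to -0.28 and Aars to -0.08. Gldc ranged from -0.25 (without Tfam+/-Zbp1-/- replicate 1) to -0.80 (without Tfam+/-Zbp1-/- replicate 2).

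Aldh1l2, the lowest of its list in Tfam+/- against WT, is a mitochondrial enzyme that oxidises formyl groups carried by folate to carbon dioxide while making NADPH. It had 3232 and 3253 normalized counts in WT, against 1651 and 2037 in Tfam+/-, while Zbp1-/- had 3522 and 3148, against 2471 and 2521 in Tfam+/-Zbp1-/-. Every library with 1 Tfam allele lay below each of the other 4, as was the case for 1.07% of all genes. Tfam+/- differed from WT by -0.82 ± 0.13 on the log2 scale (limma, adjusted p 0.052). Tfam+/-Zbp1-/- differed from Zbp1-/- by -0.42 ± 0.13 (adjusted p 0.25), so neither passed the test as deposited. The values were -0.67 and -0.50 without the 2 libraries. After the GC correction both passed, at -0.75 (adjusted p 0.0012) and -0.49 (adjusted p 0.0079), and with the 2 pairs as 1 sample besides they did not (adjusted p 0.14 and 0.34). Mthfd2, in the same mitochondrial folate pathway, showed no such separation.

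Eif2ak2, which interferon also induces, was highest in Tfam+/-. It had 954 and 1051 normalized counts in WT, against 1479 and 2134 in Tfam+/-, while Zbp1-/- had 1189 and 875, against 1343 and 1392 in Tfam+/-Zbp1-/-. Both Tfam+/- libraries lay above the other 6, a pattern that 4.73% of all genes shared for this genotype. As deposited, the change in Tfam+/- from WT was 0.83 ± 0.21 (limma, adjusted p 0.27) and that in Tfam+/-Zbp1-/- from Tfam+/- was -0.38 ± 0.21 (adjusted p 0.35), and neither passed the test. After the GC correction the change in Tfam+/- against WT was 1.13 ± 0.07 (limma, adjusted p 1.74e-04), and it still passed with the 2 pairs as 1 sample (adjusted p 0.037). Against Tfam+/-, the corrected level in Tfam+/-Zbp1-/- changed by -0.75 (adjusted p 4.00e-04, and 0.040 with the pairs as 1 sample). This last comparison was picked for Eif2ak2 after its values were seen.

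The genes whose log2 levels over the 8 libraries were most like those of Atf4 outside the members were Raly, Dele1, Nprl2, Il4ra and Hdgfl2, with r from 0.991 to 0.995. Over the 6 libraries other than the 2 that stood apart, r was 0.757 to 0.919. Dele1, the mitochondrial stress relay named above, had 381 and 390 normalized counts in WT, against 518 and 370 in Tfam+/-, while Zbp1-/- had 408 and 580, against 415 and 410 in Tfam+/-Zbp1-/-. It too was highest in the 2 libraries that stood apart. The genes most like Asns were Mrc1, Fyb, Spry2, Clec1a and Olr1, with r from 0.942 to 0.967 over 8 libraries. Over the same 6 libraries r was 0.964 to 0.9996. Both sets were picked for the highest r over 8 libraries among all genes tested, so high values are a result of that choice. Mrc1, a macrophage receptor gene, had 347 and 374 in WT, against 270 and 435 in Tfam+/-, while Zbp1-/- had 327 and 261, against 182 and 196 in Tfam+/-Zbp1-/-. Like Asns, it was lowest in the Tfam+/-Zbp1-/- libraries, a pattern that 4.24% of all genes shared for this genotype.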

How the data were processed

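Per the series' design text, the authors aligned reads with STAR in RNAseq Alignment V2.0.0 to mm10 with RefSeq genes and compared genotypes pairwise with RNA-seq Differential Expression V1.0.0. STAR 2.6.1a and Salmon are named in the submitters' processing notes. The deposited table holds normalized counts made by the authors, a non-negative signal with decimals. The sources used here do not give how reads were counted, whether strand was used or how libraries were scaled, so overlapping genes and near-identical copies are uncertain. Count models were not run, since the values are not counts.

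Tests used log2(normalized count + 1), which understates changes at low levels. A gene needed a mean of at least 10 and was tested with limma 3.58.1 in R 4.3.3 (lmFit, eBayes with trend, two-sided), all 4 genotypes in 1 fit with 4 residual and 2.77 prior degrees of freedom. Genes with a Benjamini-Hochberg adjusted p under 0.05 over all genes tested were called. For a single gene, permuting 2 libraries against 2 exactly gives no p under 0.333. The 5 comparisons share libraries. The code was tested on simulated data.

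Counting noise was judged for each pair over genes with a mean of at least 50, taking 1 normalized count as 1 read. GC content is the median over a gene's GENCODE vM21 protein-coding transcripts. The correction took a lowess curve on GC out of each library, which also recentred it. Promoters and 1-based coordinates are from RefSeq, GRCm38.p6.

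The text names the 10 members, Tfam and Zbp1, the highest and lowest gene of each pathway list without a call, and the 5 genes most like Atf4 and Asns; 1 gene that this rule selects is not reported here. Members and lists were chosen with earlier results of these data known. Alternatives are given in the closing section.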

Additional observations from a re-analysis of the deposited data

Results flagged for a closer look

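For Psat1, the libraries were ordered differently on the 2 Zbp1 backgrounds. Both Tfam+/- libraries (5539 and 5851 normalized counts) were below both WT libraries (5912 and 5913), while both Tfam+/-Zbp1-/- libraries (6103 and 6008) were above both Zbp1-/- libraries (4987 and 4999). Such separations of 2 libraries from 2 were common: 23.3% of all genes had both Tfam+/-Zbp1-/- libraries below both Zbp1-/- libraries. The share of genes with the orders seen for Psat1 was not computed. The change in Tfam+/- from WT was only -0.05 ± 0.08 on the log2 scale (limma, adjusted p 0.73), and -0.0033 after the GC correction. The difference between the 2 effects, tested as the interaction, was 0.33 on the log2 scale (limma, adjusted p 0.29) and did not pass. It was 0.29 without the 2 libraries that stood apart and 0.22 after the GC correction.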

How the results depend on the processing

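Limits come first. With 2 libraries per genotype, of which 2 stood apart and 2 pairs differed by little more than counting noise, the spread behind each call is poorly known, and the depth in reads is unknown. The 10 members had 0 calls in every comparison under 2 other pseudocounts (0.1 and 5), with no filter or a stricter one at 50, with TMM rescaling, without the trend, with only the genotypes compared in the fit, with the replicate block and with each library left out. Of the log2 changes named, 836 values under an alternative stayed on their side of the threshold with their sign, 57 came to pass it and 24 changed sign. The count models listed for the case of whole reads were not run, because the values are not whole, and the interaction has no fit of only the genotypes compared. Comparisons are taken below in the order Tfam+/- against WT, Tfam+/-Zbp1-/- against Zbp1-/-, Zbp1-/- against WT, Tfam+/-Zbp1-/- against Tfam+/-, and the interaction.

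Genes called over the whole table numbered 97, 55, 141, 748 and 88. Without a filter they were 26 in the second, 87 in the third and 47 in the interaction, and rescaling gave 86 in the third. Fits of only the genotypes compared gave 28, 1, 1 and 359. The replicate block gave 28, 1, 1, 351 and 0. Replicate numbers did not pair the libraries: the differences between replicates had r of -0.06, 0.02, -0.01 and 0.06 in the 4 comparisons across genes, and -0.70 between Tfam+/- and Zbp1-/-. Leaving out 1 library gave 12 to 98, 0 to 69, 0 to 223, 12 to 874 and 0 to 126 genes.

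The following were chosen after seeing the data. The term shared by 2 libraries gave 2069, 3155, 4717, 6049 and 2240 genes, with 2, 6, 4, 3 and 2 members. Without the 2 libraries there were 2049, 3102, 4548, 5779 and 2534 genes, with 2, 6, 5, 4 and 2 members. With the WT and Tfam+/-Zbp1-/- pairs each as 1 sample, 0 genes were called in all 5 by limma, and 275, 334, 468, 921 and 426 had an unadjusted p under 0.05. The GC correction gave 407, 777, 825, 2109 and 710 genes, with 2 members in the second, 1 in the third and 1 in the fourth. The GC correction with these pairs as 1 sample gave 41, 0, 0, 340 and 0 genes, and 692, 1044, 1031, 1866 and 1012 at an unadjusted p under 0.05.

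Atf4 in Tfam+/- against WT turned to -0.043 without the 2 libraries, to -0.052 with the shared term and to -0.026 with the GC correction, alone or with pairs as 1 sample, and leaving out 1 library gave -0.043 (without Tfam+/- replicate 1) to 0.29. Xpot there turned to 0.020 with both GC corrections. In Tfam+/-Zbp1-/- against Zbp1-/-, leaving out both libraries, or Zbp1-/- replicate 2 alone, gave the same values: 0.0015 for Atf4, -0.0055 for Ppp1cb, -0.013 for Xpot, -0.11 for Dnajb9 and 0.0041 for Herpud1. The other end of the values with 1 library left out was -0.37, 1.39, 0.28, 1.08 and -0.29 for these 5 genes. The shared term gave -0.020 for Xpot and -0.13 for Dnajb9, and both GC corrections gave -0.10 for Xpot. Psat1 in Tfam+/-Zbp1-/- against Tfam+/- turned to -0.038 with rescaling and to -0.075 with both GC corrections. Beyond what the libraries left out show, the cause was not tested.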

Other observations

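After the GC correction, a few more genes of the pathway lists passed the test in Tfam+/-Zbp1-/- against Zbp1-/-. Atf3 (log2 change -0.70, limma, adjusted p 0.033) and Sesn2, a stress-induced regulator of amino acid sensing (-0.31, adjusted p 0.022), fell. Tyms, the thymidylate synthase of the folate cycle (0.52, adjusted p 0.0075), and Vars, the valine tRNA synthetase (0.24, adjusted p 0.040), rose. In Zbp1-/- against WT, Tnfrsf10b, a death receptor gene, rose (0.38, adjusted p 0.017), while Slc38a1 (-0.40, adjusted p 0.032), Vars (-0.31, adjusted p 0.016) and Hyou1 (-0.21, adjusted p 0.039) fell. Such calls were no more frequent in the lists than elsewhere: in the first comparison 5.32% of the 94 list genes passed, against 6.10% of all genes, and in the second 4.26%, against 6.48%. These genes were named after their values were seen. With the WT and Tfam+/-Zbp1-/- pairs each as 1 sample, no gene at all passed in either comparison (limma, with 1044 and 1031 genes at an unadjusted p under 0.05).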
